A study of Mus musculus with 16 samples.

Results

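The liver X receptors (LXRs) and the genes they drive for sterol efflux were described in organoids of mouse pancreatic cancer. The set held 7 genes, taken by symbol from the 55487 genes listed: the receptors Nr1h2 and Nr1h3, the transporters Abca1 and Abcg1, and Mylip, Scarb1 and Lpcat3. All 7 were matched to GENCODE mouse release M21, and 6 of them passed the filter on low counts. Abca1 did not.

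RNA was measured in 16 organoid lines, which are epithelial cultures kept in a basement membrane gel, from 6 mice of the KPC model on the C57BL6/J strain. As background, in KPC mice a Cre recombinase under the Pdx1 promoter usually switches on the mutant alleles of the model in pancreas cells; the labels name the model only, and the ages of the mice are not given in the sources used here. There were 9 metastasis lines, from peritoneum (mice 2, 3 and 4), liver (mice 1 and 6), diaphragm (mice 5 and 6), lung (mouse 5) and ovary (mouse 6), and 7 primary tumor lines, of which mouse 6 gave 2. Every line of both stages was cultured with A83-01 (an inhibitor of TGF-beta receptors), EGF, FGF-10, gastrin, Noggin, N-acetylcysteine, nicotinamide, B27 and R-spondin. Lines from the same mouse share an animal, so tests over lines partly measure the spread between cultures, and a bulk value cannot tell fewer cells of a type from less RNA per cell.

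LXRs are nuclear receptors that bind oxysterols, pair with RXR and sit on direct repeats in DNA called DR4 elements. When sterols accumulate they raise genes that send cholesterol out of the cell and genes that limit its uptake. Abca1 and Abcg1 hand cholesterol to lipoprotein particles, the ubiquitin ligase MYLIP (also called IDOL) removes receptors that take up lipoproteins, and LPCAT3 builds polyunsaturated phospholipids. SCARB1 (SR-BI) moves cholesterol between cells and high-density lipoprotein in both directions.

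Total expected counts ran from 24624420 to 49965492 per line. Genes that collect ribosomal RNA reads took 72.7% of metastasis replicate 4 and 29.9% of tumor replicate 2, so low genes rest on few reads there. Markers of epithelium summed to 3524 to 7145 CPM (counts scaled to equal library size) in metastasis lines and 3657 to 5287 CPM in tumor lines, with 0 of 5 called. Fibroblast markers summed to at most 0.775 CPM and endothelium markers to at most 1.71 CPM in any line. The macrophage marker Adgre1 had 0 counts in all lines; the macrophage list summed to 29.3 to 55.4 CPM in metastasis lines and 40.7 to 164 CPM in tumor lines, mostly Cd14, which fell, and Mrc1, which rose. Hepatocyte markers summed to 73.0 to 566 CPM in metastasis lines and 208 to 452 CPM in tumor lines, mesothelium markers to 308 to 756 CPM and 164 to 1134 CPM, and steroidogenic ovary markers to 1.85 to 5.97 CPM and 1.61 to 3.22 CPM, in the same order of stages. The mesothelium sum came almost wholly from Msln, while Wt1 held at most 0.313 CPM in metastasis lines and 0.0199 CPM in tumor lines. The hepatocyte sum came almost wholly from Hnf4a, Apob and Ttr. Alb held at most 0.0238 CPM in metastasis lines and 1.31 CPM in tumor lines, and Serpina1c had 0 counts in all lines. Within the hepatocyte list Ttr fell by 6.12 on the log2 scale (edgeR adjusted p = 0.000854) and Apob rose by 1.86 (edgeR adjusted p = 0.0280). The line labelled tumor replicate 6 stood apart from the other tumor lines in several of the genes described here and lay near the metastasis lines. Why it did so was not tested, and its stage label was not checked. The line was kept as labelled, and results that rest on it are given with and without it.

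Mylip was the gene of the set that changed with stage: it fell in metastasis lines, and was lower than in the tumor lines of the same animal in 6 of 6 mice. Mylip lies on the plus strand of chromosome 13 (GRCm38, chr13:45389742-45412022). Its levels in metastasis lines ran from 0.0475 to 1.12 CPM with a median of 0.505, against 0.196 to 3.04 CPM with a median of 1.69 in tumor lines. The levels overlapped only through tumor replicate 6, at 0.196 CPM, since the other 6 tumor lines held 1.54 to 3.04 CPM. Metastasis replicate 3 (mouse 4, peritoneum) at 0.0475 CPM and replicates 6, 7 and 8 (mouse 6) at 0.0802, 0.122 and 0.131 CPM were the lowest. By animal, Mylip held 0.505 CPM in the metastasis line of mouse 1 against 1.69 CPM in its tumor line, 0.832 against 1.91 CPM in mouse 2, 1.12 against 2.33 CPM in mouse 3, and 0.0475 against 1.54 CPM in mouse 4. In mouse 5 the metastasis lines held 0.517 CPM (diaphragm) and 0.786 CPM (lung), against 3.04 CPM in the tumor line. Mylip averaged 0.460 ± 0.391 CPM in metastasis lines (SD, n = 9) and 1.77 ± 0.865 CPM in tumor lines (SD, n = 7). It fell by 2.33 on the log2 scale (SE 0.48, 95% interval -3.38 to -1.28, edgeR adjusted p = 0.0102), a level 5.02-fold lower. The mean difference within mice was -2.03 ± 1.11 (SD, n = 6), from -4.09 in mouse 4 to -1.03 in mouse 3. The exact sign-flip test over 6 mice gave p = 0.03125, two-sided, the smallest it can give. Adjusted over the 7 genes tested this way (Benjamini-Hochberg), the sign-flip p was 0.146, which misses 0.05. With 6 mice no gene could pass this adjustment on its own, so the miss says little.

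Mylip was thus 1 of the 6 genes of the set that passed the filter to be called, against 16.5% of all 15573 genes tested. By direction, 0 of 6 were called higher, against 6.59% of all genes, and 1 of 6 lower, against 9.92%. None of the 6 had levels without overlap between the stages, where 1.12% of all genes did. Without tumor replicate 6, Mylip alone among them had no overlap, and 7.17% of all genes had none. The median log2 fold change of the 6 was -0.05, beside -0.02 for all genes tested.

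Counts behind Mylip were small, at 2 to 43 per metastasis line and 10 to 153 per tumor line. The lowest line, metastasis replicate 3, had 2 counts and a 95% exact Poisson interval of 0.00575 to 0.172 CPM. That interval ends below the measured value of every tumor line, but it overlaps the interval of tumor replicate 6 (0.0940 to 0.361 CPM). These intervals cover counting error only. Without mouse 5 the log2 fold change of Mylip was -2.33 and its edgeR adjusted p 0.0512; 0 of the 6 genes were then called, against 4.90% of all genes. With no term for mouse Mylip was again the 1 gene called, against 14.2% of all genes. Genes tested on chromosome 13 had a median log2 fold change of -0.22, and Mylip lay 2.10 below it.

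**Figure D1:**
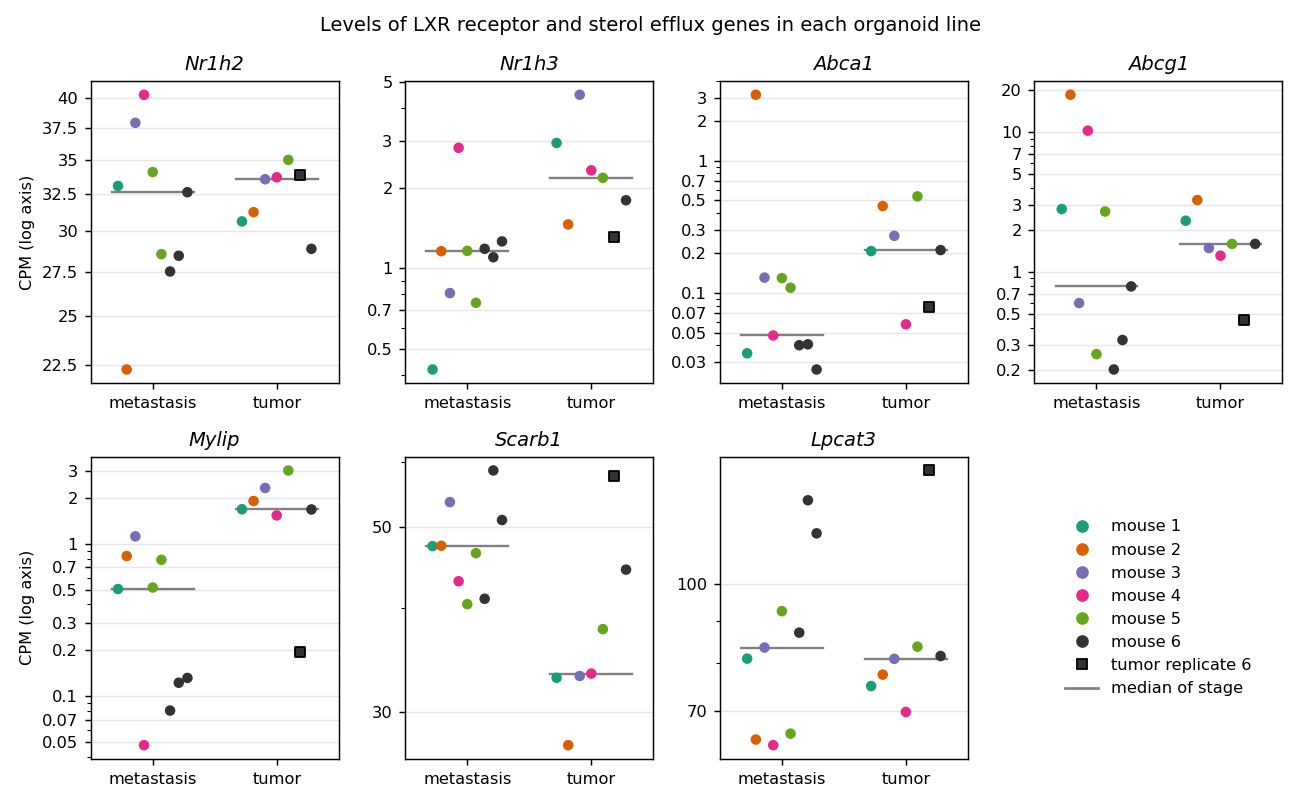
Level of each gene in CPM on a log axis, with 1 point per organoid line, metastasis lines left and tumor lines right, coloured by mouse; grey bars are medians. Mylip in metastasis lines lies at or below 1.12 CPM, and every tumor line but replicate 6 (square) lies at 1.54 CPM or above.

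Tumor replicate 6 shared low p53 target genes with the metastasis lines. The summed level of 10 p53 target genes was 154 to 274 CPM in metastasis lines and 278 CPM in tumor replicate 6, and 1071 to 1668 CPM in the other 6 tumor lines. All 10 fell in metastasis lines, with a median log2 fold change of -1.91, among them Cdkn1a (-2.24), Mdm2 (-1.32), Ccng1 (-2.68) and Eda2r (-9.37), each lower in 6 of 6 mice. In mouse 6, Mylip held 0.0802 to 0.131 CPM in the 3 metastasis lines, 0.196 CPM in tumor replicate 6 and 1.68 CPM in tumor replicate 7. The p53 list was chosen with the separation of these samples known, and its part in the Mylip result was not tested. Without tumor replicate 6, Mylip had a log2 fold change of -2.48 (SE 0.43, edgeR adjusted p = 0.00216), where 24.7% of all genes were called. The share of reads in genes linked to ribosomal RNA had a median of 12.3% in metastasis lines and 0.272% in tumor lines. The stages overlapped widely, at 0.0185% to 72.7% in metastasis lines and 0.0463% to 29.9% in tumor lines. In mouse 2 the tumor line held more (29.9%) than the metastasis line (16.6%). With that share as a covariate, an alternative added after seeing the data, Mylip had a log2 fold change of -2.55 (SE 0.59, edgeR adjusted p = 0.0355).

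**Figure D2:**
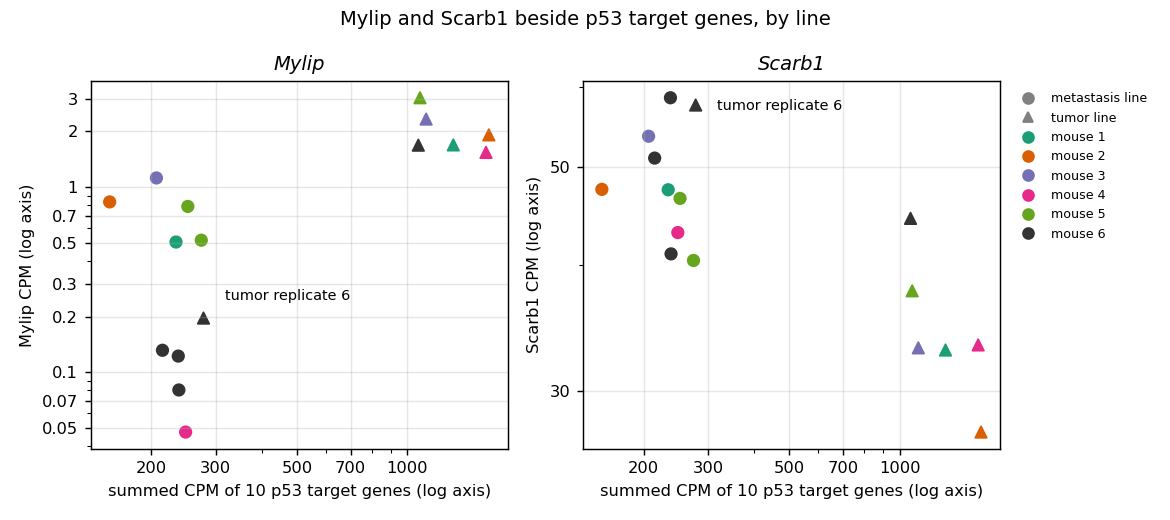
Mylip (left) and Scarb1 (right) in CPM against the summed CPM of 10 p53 target genes, both on log axes; circles are metastasis lines, triangles tumor lines, coloured by mouse. Tumor replicate 6, at a sum of 278 CPM, lies beside the metastasis lines and away from the 6 tumor lines at 1071 to 1668 CPM.

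Of the receptors that MYLIP marks for removal, Vldlr, which takes up very low density lipoprotein, averaged 57.9 ± 23.8 CPM in metastasis lines (SD, n = 9) and 36.0 ± 44.6 CPM in tumor lines (SD, n = 7). Its log2 fold change was 0.86 (SE 0.49, edgeR adjusted p = 0.238), and it was higher in 4 of 6 mice. Lrp8, a receptor for apolipoprotein E and reelin, averaged 44.1 ± 8.95 CPM in metastasis lines (SD, n = 9) and 39.3 ± 8.87 CPM in tumor lines (SD, n = 7). Its log2 fold change was 0.16 (SE 0.14, edgeR adjusted p = 0.442), and it was higher in 5 of 6 mice. Neither passed the test, and MYLIP acts on these receptors as proteins, which were not measured.

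The 2 receptors differed in level and in how they varied. Nr1h2, which encodes LXR beta and is found in most tissues, lies on the minus strand of chromosome 7 (GRCm38, chr7:44549616-44553951). It held 22.3 to 40.3 CPM in metastasis lines with a median of 32.6, and 28.9 to 35.0 CPM in tumor lines with a median of 33.6. The tumor lines lay within the range of the metastasis lines, whose lowest was metastasis replicate 9 (mouse 2, peritoneum). The log2 fold change was -0.05 (SE 0.10, 95% interval -0.26 to 0.17, edgeR adjusted p = 0.770), with 3 mice higher and 3 lower.

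Nr1h3, which encodes LXR alpha and is known for liver, gut and macrophages, lies on the minus strand of chromosome 2 (GRCm38, chr2:91184061-91202834). Its levels were 0.418 to 2.83 CPM in metastasis lines with a median of 1.16, and 1.31 to 4.47 CPM in tumor lines with a median of 2.18. All metastasis lines but replicate 3 lay below every tumor line, and replicate 3 (mouse 4, peritoneum) at 2.83 CPM also exceeded its own tumor line at 2.33 CPM. How many of all genes separate with metastasis replicate 3 set aside was not counted. Nr1h3 averaged 1.18 ± 0.674 CPM (SD, n = 9) in metastasis lines and 2.36 ± 1.08 CPM (SD, n = 7) in tumor lines. The log2 fold change was -1.003 (SE 0.35, 95% interval -1.78 to -0.23), with an edgeR adjusted p of 0.0710 that misses the threshold of 0.05. By animal, the metastasis line held 0.418 CPM against 2.95 CPM in the tumor line in mouse 1, 1.16 against 1.46 CPM in mouse 2 and 0.808 against 4.47 CPM in mouse 3. In mouse 5 the metastasis lines held 1.16 CPM (diaphragm) and 0.743 CPM (lung), against 2.18 CPM in the tumor line. Nr1h3 was thus lower in 5 of 6 mice, with a mean log2 difference of -1.12 ± 1.21 (SD, n = 6; exact sign-flip p = 0.0625, two-sided). Without tumor replicate 6, at 1.31 CPM the lowest tumor line, the edgeR adjusted p was 0.0457 and the log2 fold change -1.14, where 24.7% of all genes were called. DESeq2 also called it (-0.99, DESeq2 adjusted p = 0.0277), where 25.5% of all genes were called. LXR alpha is well known from macrophages; of the markers of that cell type, 1 of 3 tested rose (Mrc1) and 1 fell (Cd14), and their part in this difference was not tested.

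Both receptors can be set side by side per length, in TPM (abundance corrected for transcript length). Nr1h3 made up 1.27% to 6.46% of the summed TPM of the 2 receptors in metastasis lines with a median of 3.64%, and 3.70% to 12.7% in tumor lines with a median of 6.47%. So Nr1h2 was the main LXR transcript in every line of both stages. The share of Nr1h3 averaged 3.74% ± 1.60 in metastasis lines (SD, n = 9) and 7.12% ± 3.24 in tumor lines (SD, n = 7). Within mice it differed by -3.74 percentage points ± 4.75 (SD, n = 6) and was lower in 5 of 6 mice (exact sign-flip p = 0.09375, two-sided).

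**Figure D3:**
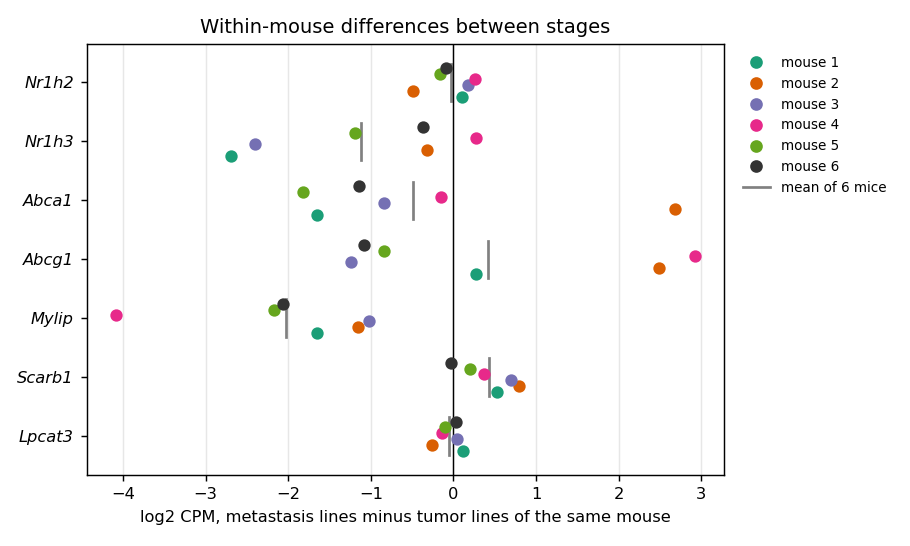
Difference in log2 CPM between the metastasis and the tumor lines of the same mouse, with 1 point per mouse and gene; values right of the zero line are higher in metastasis, and grey bars are means of 6 mice. Mylip lies left of zero in 6 of 6 mice, while Abcg1 spreads from -1.25 to 2.93.

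Abca1, the transporter that loads cholesterol onto apolipoprotein A-I, had few counts in 15 of 16 lines. It lies on the minus strand of chromosome 4 (GRCm38, chr4:53030787-53159895). Apart from metastasis replicate 9 (mouse 2, peritoneum), metastasis lines held 0.0263 to 0.130 CPM; tumor lines held 0.0577 to 0.536 CPM with a median of 0.210. Metastasis replicate 9 had 125 counts, or 3.15 CPM (95% exact Poisson interval 2.62 to 3.75), and no other line had more than 27. Its own tumor line, tumor replicate 2, held 0.453 CPM. Abca1 was lower in metastasis in the other 5 mice (mean log2 difference -0.49 ± 1.66, SD, n = 6; exact sign-flip p = 0.5, two-sided). Under a filter that only asks for 10 counts over all lines, its log2 fold change was -1.08 (SE 0.58, 95% interval -2.32 to 0.17, edgeR adjusted p = 0.244 over 23565 genes, of which 11.5% were called).

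Abcg1, the transporter that passes cholesterol to high-density lipoprotein, moved in no common direction with stage. It lies on the plus strand of chromosome 17 (GRCm38, chr17:31057675-31117988). Metastasis lines held 0.201 to 18.5 CPM with a median of 0.788, and tumor lines 0.451 to 3.27 CPM with a median of 1.59. Of the peritoneal lines, metastasis replicates 9 (mouse 2) and 3 (mouse 4), held 18.5 and 10.3 CPM, and the other 7 metastasis lines 0.201 to 2.82 CPM. The third peritoneal line, metastasis replicate 2 (mouse 3), was among the low ones at 0.599 CPM. Within mice, Abcg1 was at 18.5 CPM in metastasis against 3.27 CPM in tumor in mouse 2, at 10.3 against 1.31 CPM in mouse 4, and at 2.82 against 2.33 CPM in mouse 1. In mouse 5 the diaphragm line held 0.258 CPM, from 2 counts, and the lung line 2.71 CPM, against 1.59 CPM in the tumor line. In mouse 6 the metastasis lines held 0.201, 0.326 and 0.788 CPM, against 0.451 and 1.59 CPM in the tumor lines. The log2 fold change was 0.11 (SE 0.67, 95% interval -1.36 to 1.57, edgeR adjusted p = 0.934), an interval that holds changes in either direction of more than 1 on the log2 scale. The value turned on the fit: it was 1.26 with no term for mouse (edgeR adjusted p = 0.346), 0.85 without mouse 6, 0.61 with counts summed per mouse and stage, and -0.25 without mouse 4 or without mouse 2.

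Metastasis replicate 9, where both transporters peaked, did not stand out in most other genes of the set. Nr1h2 was at its lowest of all 16 lines there (22.3 CPM), while Nr1h3 at 1.16 CPM, Mylip at 0.832 CPM and Scarb1 at 47.5 CPM lay within the range of the other metastasis lines. Markers of endothelium summed to 1.71 CPM in that line and to at most 0.448 CPM in the other metastasis lines, led by Tek at 1.49 CPM. The macrophage list was at its lowest there, 29.3 CPM, and Adgre1 had 0 counts. Steroidogenic ovary markers were at their highest there, 5.97 CPM against at most 3.54 CPM in the other lines, led by Star, and epithelium markers at their lowest of all 16 lines, 3524 CPM. The part of these markers in the Abca1 and Abcg1 values was not tested.

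Promoters are shown for Abca1, which holds the best match to an LXR element, and for Mylip, which changed with stage. The sequences come from RefSeq on GRCm38.p6 and run from 250 bases before to 50 bases after the start site, 5′ to 3′ on the gene's strand. Promoters were found for 5 of the 7 genes (Nr1h2, Nr1h3, Abca1, Mylip and Lpcat3). The Abca1 window is chr4:53159846-53160145 on the minus strand and the Mylip window chr13:45389492-45389791 on the plus strand.
Abca1: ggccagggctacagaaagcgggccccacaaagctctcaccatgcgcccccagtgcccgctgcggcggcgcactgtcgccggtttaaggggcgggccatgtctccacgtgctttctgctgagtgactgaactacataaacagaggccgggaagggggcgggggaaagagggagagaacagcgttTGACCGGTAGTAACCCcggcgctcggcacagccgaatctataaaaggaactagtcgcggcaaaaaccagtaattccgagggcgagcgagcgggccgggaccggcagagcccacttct
Mylip: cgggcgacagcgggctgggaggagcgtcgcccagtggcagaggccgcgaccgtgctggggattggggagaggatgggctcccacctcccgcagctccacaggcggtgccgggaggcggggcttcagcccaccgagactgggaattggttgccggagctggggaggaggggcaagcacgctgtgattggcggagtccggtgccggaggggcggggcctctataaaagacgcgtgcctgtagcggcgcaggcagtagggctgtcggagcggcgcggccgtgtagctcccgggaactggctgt
The DR4 element searched was AGGTCA, 4 bases of any kind, and AGGTCA again. The capitals in Abca1 mark its best match, with 3 mismatches in the 12 fixed bases, on the opposite strand from base -67 to base -52.

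With up to 2 mismatches on either strand, 0 of the 5 genes with a promoter held a DR4 match, against 3.02% of 32851 promoters. Allowing 3, a limit added after seeing that none was found, gave the 1 match in Abca1 and a match in 21.9% of all promoters. The sterol regulatory element TCACNCCAC was found in 0 of the 5 and in 1.24% of all promoters. LXR elements are often far from the start site, and these windows say nothing of them.

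Scarb1, the high-density lipoprotein receptor, lies on the minus strand of chromosome 5 (GRCm38, chr5:125277087-125341094). Metastasis lines held 40.4 to 58.6 CPM with a median of 47.5, and tumor lines 27.3 to 57.6 CPM with a median of 33.3. Apart from mouse 6, all metastasis lines lay above all tumor lines. How many of all genes separate with mouse 6 set aside was not counted. In mouse 6, the metastasis lines held 41.0 to 58.6 CPM, a range that held tumor replicates 6 and 7 at 57.6 and 44.5 CPM. By animal, Scarb1 held 47.5 CPM in metastasis against 33.0 CPM in tumor in mouse 1, 47.5 against 27.3 CPM in mouse 2, 53.6 against 33.1 CPM in mouse 3, and 43.1 against 33.3 CPM in mouse 4. In mouse 5 the metastasis lines held 40.4 and 46.6 CPM, against 37.7 CPM in the tumor line. The mean was 47.7 ± 5.96 CPM (SD, n = 9) in metastasis lines and 38.1 ± 10.1 CPM (SD, n = 7) in tumor lines. The log2 fold change was 0.33 (SE 0.12, 95% interval 0.06 to 0.61), with an edgeR adjusted p of 0.0852 that misses the threshold. It was higher in 5 of 6 mice (mean log2 difference 0.43 ± 0.31, SD, n = 6; exact sign-flip p = 0.0625, two-sided). Without tumor replicate 6 the log2 fold change was 0.43 (edgeR adjusted p = 0.0180, where 24.7% of all genes were called). Without mouse 6 it was 0.53 (edgeR adjusted p = 0.0234, where 19.1% of all genes were called). With counts summed per mouse and stage it was 0.45 (edgeR adjusted p = 0.0436, where 15.5% of all genes were called).

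Lpcat3, which puts polyunsaturated fatty acids into membrane phospholipids, had the most counts of the set. It lies on the plus strand of chromosome 6 (GRCm38, chr6:124663027-124704418). Metastasis lines held 63.6 to 126 CPM with a median of 83.6, and tumor lines 69.8 to 137 CPM with a median of 81.0. The 4 highest lines all came from mouse 6 or mouse 5: metastasis replicates 7, 8 and 4 at 126, 115 and 92.6 CPM, and tumor replicate 6 at 137 CPM. Without tumor replicate 6 the other tumor lines held 69.8 to 83.8 CPM, a narrower range than that of the metastasis lines. The log2 fold change was -0.05 (SE 0.13, 95% interval -0.32 to 0.23, edgeR adjusted p = 0.835), with 3 mice higher and 3 lower.

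Per length, the genes fell into 3 abundant and 4 scarce ones. Median TPM over 16 lines was 54.5 for Lpcat3, 26.0 for Nr1h2, 23.9 for Scarb1, 1.04 for Nr1h3, 0.508 for Abcg1, 0.430 for Mylip and 0.0129 for Abca1. Lpcat3 was highest and Abca1 lowest in 16 of 16 lines. Nr1h2 and Scarb1 were each above the other in 8 of 16 lines, and the order of their medians differed by stage. In tumor lines the median was 27.2 TPM for Nr1h2 and 18.7 TPM for Scarb1, and in metastasis lines 23.0 and 27.6 TPM. Single lines went against this order. Scarb1 was the higher in tumor replicates 6 and 7, and Nr1h2 in metastasis replicates 1, 3 and 4. The order by stage was not tested. Nr1h3 was above Abcg1 in 11 of 16 lines and Abcg1 above Mylip in 12 of 16, so the order of these neighbours is not fixed either. These TPM values were rescaled after leaving out Gm42418, Gm26917 and AY036118, which are not the 3 genes that collected most ribosomal RNA reads here (CT010467.1, AY036118 and Lars2). Rescaled without CT010467.1, AY036118 and Lars2 instead, Lpcat3 in metastasis replicate 4 was at 64.6 TPM in place of 29.5 TPM, and its mean over 16 lines was 59.4 TPM in place of 55.8 TPM.

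**Figure D4:**
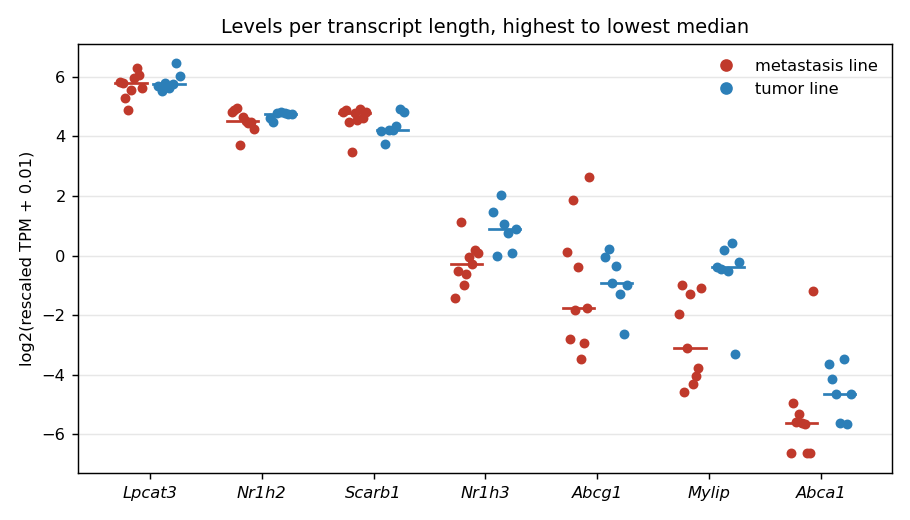
Level per transcript length as log2(rescaled TPM + 0.01), genes ordered by median; red points are metastasis lines, blue points tumor lines, and bars are medians. Lpcat3, Nr1h2 and Scarb1 lie well above the other 4 genes, and Abca1 is lowest.

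Lpcat3, Scarb1 and Nr1h2 had enough counts to compare isoforms, and 0 of their 5 main transcripts passed the test. With 6 mice the smallest exact p is 0.03125, so after adjustment over 5 transcripts no transcript could pass on its own, and the count of 0 says little. The main Lpcat3 transcript made up 87.4% ± 4.23 of its gene's transcripts in metastasis lines (SD, n = 9) and 85.6% ± 3.10 in tumor lines (SD, n = 7). The main Scarb1 transcript made up 92.1% ± 2.69 in metastasis lines and 90.5% ± 4.71 in tumor lines. Nr1h2 was split over several transcripts, and 1 of them (ENSMUST00000107911) made up 25.4% ± 7.72 in metastasis lines and 16.9% ± 3.16 in tumor lines. Its difference within mice was 8.16 percentage points ± 7.20 (SD, n = 6), higher in 5 of 6 mice (exact sign-flip p = 0.0625, two-sided; 0.3125 adjusted over 5 transcripts).

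Neither the site of the metastasis nor the animal gave a called gene in the set. Between sites, 0 of 15573 genes were called by edgeR, and 266, or 1.71%, had an unadjusted p under 0.05; lung and ovary had 1 line each. Mylip had a log2 fold change over tumor lines of -2.65 (SE 1.18) in diaphragm, -2.58 (SE 1.18) in liver, -1.98 (SE 1.53) in lung, -2.60 (SE 1.59) in ovary and -2.06 (SE 0.99) in peritoneum, all below 0. Abcg1 had 1.59 (SE 1.07) in peritoneum and -1.73 (SE 1.12) in diaphragm, and the test over all 5 sites did not call it (edgeR adjusted p = 1.00); peritoneum against diaphragm alone was not tested. Between mice, 24 genes (0.154%) were called and 0 of the 6, while 17.1% of all genes had an unadjusted edgeR p under 0.05. Abcg1 had an edgeR adjusted p of 0.229 (unadjusted 0.0214), Lpcat3 of 0.249 (0.0286) and Mylip of 0.285 (0.0462). The unadjusted edgeR p was 0.218 for Nr1h2, 0.256 for Scarb1 and 0.400 for Nr1h3.

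The members did not move as 1 block across lines. Over the 16 lines, which share mice and differ in depth, log2 CPM of Abcg1 and Lpcat3 had a Pearson r of -0.72 and a Spearman rho of -0.81. Abca1 and Abcg1 had an r of 0.56 and a rho of 0.40, and Abca1 and Mylip an r of 0.58 and a rho of 0.80. Nr1h3 and Scarb1 had an r of -0.57 and a rho of -0.66, and Mylip and Scarb1 an r of -0.58 and a rho of -0.61. Nr1h3 and Abcg1, a receptor and a classical target, had an r of 0.16 and a rho of 0.13.

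Of 9657 genes whose mean level was 5 CPM or more, the pattern most like Mylip over the 16 lines was that of ccdc198 (r 0.957, rho 0.979), then Gja1 (r 0.947), the gap junction protein connexin 43, and Syt14 (r 0.943). All 3 had lower mean log2 CPM in metastasis lines than in tumor lines; for Gja1 these were 0.81 and 5.46. Closest to Nr1h3 were Slc25a39 (r 0.891), Kxd1 (r 0.878) and Cd24a (r 0.868), and closest to Nr1h2 were Mgrn1 (r 0.871), Dnpep (r 0.871) and Nucb1 (r 0.835). For Abcg1 they were Cisd2 (r 0.909), Ttc14 (r 0.873) and Tsnax (r 0.867), and for Scarb1 they were Sun1 (r 0.937), Vps37b (r 0.918) and Brap (r 0.915). Lpcat3 was most like Tmem8 (r 0.902), Tm7sf2 (r 0.891), a sterol reductase of cholesterol synthesis, and Osbp (r 0.886), an oxysterol-binding protein.

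Of 62 other genes of the pathway in 7 lists, 47 were tested: 7 were called higher in metastasis lines, 4 lower, and 36 were not called. That is 23.4%, beside 16.5% of all genes, and their median log2 fold change was 0.08, beside -0.02. The lists were chosen with earlier results of these data known, so these shares are a description and no test of the pathway. None of the 10 tested partners and cofactors of LXR passed. The RXR genes had log2 fold changes of -0.48 (Rxra, edgeR adjusted p = 0.311) and -0.21 (Rxrb, 0.163), and the coactivator Ncoa1 one of 0.52 (edgeR adjusted p = 0.0605).

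Of 3 tested enzymes that make or clear oxysterols, the ligands of LXR, 1 rose and 1 fell. Cyp39a1, which hydroxylates an oxysterol in bile acid synthesis, averaged 3.99 ± 2.05 CPM in metastasis lines (SD, n = 9) and 13.9 ± 11.9 CPM in tumor lines (SD, n = 7). It fell by 1.59 on the log2 scale (SE 0.28, edgeR adjusted p = 0.00540). Sult2b1, which sulfates cholesterol and oxysterols, rose by 0.60 (SE 0.17, edgeR adjusted p = 0.0322), to 12.4 ± 5.07 CPM in metastasis lines against 7.71 ± 4.04 CPM in tumor lines. Cyp27a1, Cyp46a1, Ch25h, Cyp7b1 and Cyp7a1 were not called or were too low to test.

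Of 15 other LXR targets listed, 11 were tested, of which 3 rose and 1 fell. Apoc1, Abcg5, Abcg8 and Lpl did not pass the count filter. Apoc1 averaged 0.0391 CPM in metastasis lines against 1.20 CPM in tumor lines and was lower in 6 of 6 mice. Abcg8 was higher in 6 of 6 mice, Abcg5 in 4 and Lpl in 2. Rnf145, a ubiquitin ligase of the sterol response, averaged 47.8 ± 8.83 CPM in metastasis lines (SD, n = 9) and 28.9 ± 6.99 CPM in tumor lines (SD, n = 7), a log2 rise of 0.73 (SE 0.18, edgeR adjusted p = 0.0186). Mertk, a receptor for uptake of dying cells, rose by 1.35 (SE 0.40, edgeR adjusted p = 0.0388), and Pltp, the phospholipid transfer protein, by 1.57 (SE 0.47, edgeR adjusted p = 0.0413) at low levels. Arl4c, a small GTPase, fell by 0.67 (SE 0.18, edgeR adjusted p = 0.0257). The lipogenic targets were not called: Srebf1 had a log2 fold change of -0.19 (edgeR adjusted p = 0.0786), Fasn 0.35 (0.0883), Scd1 0.26 (0.408) and Mlxipl -1.03 (0.0523).

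Of 13 tested genes of sterol transport and storage, Soat1 rose. Soat1 esterifies cholesterol for storage in lipid droplets. It held 141 to 290 CPM in metastasis lines, against 30.1 to 69.8 CPM in 6 tumor lines and 186 CPM in tumor replicate 6. It rose by 1.72 on the log2 scale (SE 0.28, edgeR adjusted p = 0.00443) and was higher in 6 of 6 mice. Npc1 and Npc2, which export cholesterol from lysosomes, Lipa, the lysosomal acid lipase that frees it from esters, and Osbp, which moves sterols between membranes, were not called.

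Among relatives of Lpcat3, Lpcat4 rose by 0.57 (SE 0.13, edgeR adjusted p = 0.0160) and Mboat2 by 1.68 (SE 0.52, edgeR adjusted p = 0.0469). Lpcat2 was called lower (edgeR adjusted p = 0.0169): it was at 0 in 5 of 9 metastasis lines but at 1.16 and 2.75 CPM in both metastasis lines of mouse 5, against 0.0784 to 1.97 CPM in tumor lines. Scarb2, a lysosomal relative of Scarb1, fell by 0.55 (SE 0.15, edgeR adjusted p = 0.0321). Tumor replicate 6 again sat nearer the metastasis lines in several of these, where Mboat2 held 3.62 to 26.6 CPM in metastasis lines, 15.5 CPM in tumor replicate 6 and 1.31 to 3.87 CPM in the other tumor lines. Mertk held 0.618 to 3.14 CPM in metastasis lines, 2.10 CPM in tumor replicate 6 and 0.258 to 0.631 CPM in the other tumor lines. Across 36 alternative settings Cyp39a1 and Soat1 passed in all 36, Lpcat4 in 32 and Rnf145 in 30. Lpcat2 passed in 30 of 34, and Sult2b1, Pltp, Mertk, Arl4c, Scarb2 and Mboat2 in 13 to 17.

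**Figure D5:**
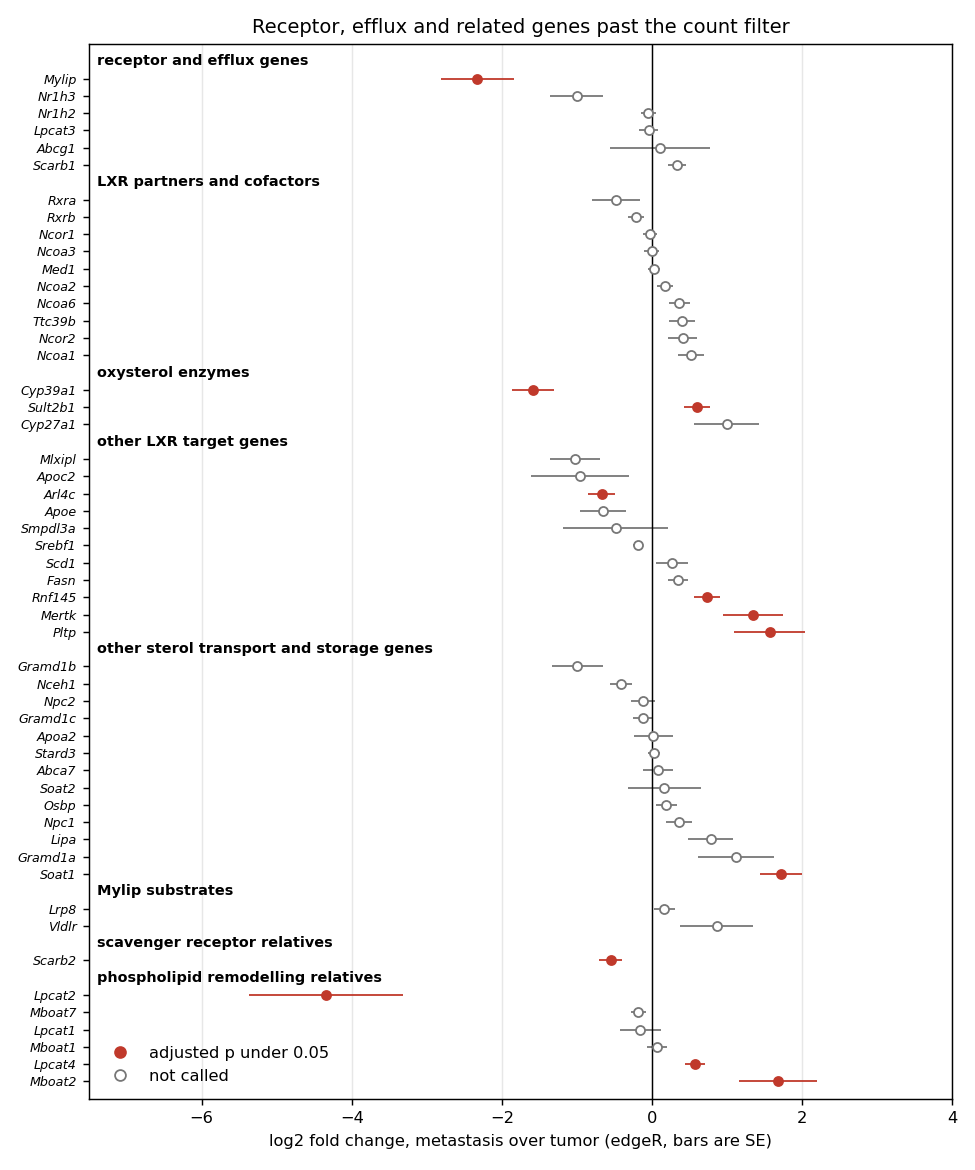
Log2 fold change of metastasis over tumor lines from edgeR, with bars of 1 SE, for the genes of the set and the genes shown from 7 lists of related genes that passed the count filter; filled red points have an adjusted p under 0.05. Mylip at -2.33 is the filled point of the receptor and efflux genes, and Soat1 at 1.72 is the highest filled point. The fold change of Lpcat2, which has 5 metastasis lines at 0, depends on the prior count.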

How the data were processed

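For each line the authors deposited values per gene and per isoform. FastQC 0.11.8, STAR 2.6.0c and RSEM 1.3.1 were used with genome GRCm38.p6, per the submitters' processing notes; the strand setting is not given in the sources used here. The deposited tables hold expected counts (estimates that need not be whole), TPM, and for isoforms the percent they make up within their gene. RSEM shares reads among similar genes, so near-identical copies are uncertain.

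Expected counts were rounded and tested with edgeR 4.0.16 in R 4.3.3 (quasi-likelihood, TMM, filterByExpr by stage, terms for mouse and stage), with Benjamini-Hochberg adjustment over 15573 genes at 0.05. Of 55487 identifiers, 55394 were matched to GENCODE M21. CPM used TMM-scaled library sizes; differences within mice and correlations used log2 CPM with a prior count of 2. Differences within mice were tested by exact sign-flip tests over 6 mice. Code was tested on simulated data.

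Lines were paired by the mouse they came from, as labelled. Deviations from the stage means correlated at 0.261 on average within a mouse (17 pairs, some of them of 1 stage) and at -0.116 between mice. Between metastasis and tumor lines of the same mouse, the mean ran from 0.0349 in mouse 3 to 0.252 in mouse 6. Named genes were all 7 of the set, the 3 most correlated genes of each that passed the filter, called genes of the lists and up to 2 others per list, and p53 targets. Others among the lists were chosen after their values were seen. The genes of the set and the lists were chosen with earlier results of these data known. The design named Gm42418, Gm26917 and AY036118 as collectors of ribosomal RNA reads; CT010467.1, AY036118 and Lars2 were the main ones and were added as alternatives after seeing the data. Other alternatives were RLE factors, other filters, DESeq2 1.42.0, limma 3.58.1 on log2(TPM + 1) or log2(TPM + 0.1), summed counts, no mouse term, and lines or mice left out. Some genes, and results that need them, are not reported here.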

Additional observations from a re-analysis of the deposited data

Results flagged for a closer look

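In 26 groups of values, 3 had a line far from the rest of its stage; chance alone gives about 1 in 20. Nr1h3 in metastasis replicate 3 (mouse 4, peritoneum) was at 2.83 CPM, while the other 8 metastasis lines held 0.418 to 1.26 CPM. Abca1 in metastasis replicate 9 (mouse 2, peritoneum) was at 3.15 CPM, while the other metastasis lines held 0.0263 to 0.130 CPM. Lpcat3 in tumor replicate 6 (mouse 6) was at 137 CPM, while the other tumor lines held 69.8 to 83.8 CPM.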

How the results depend on the processing

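Mylip was below 0 in every alternative and past the threshold in 35 of 36 with a test; the exception was without mouse 5 (-2.33, adjusted p = 0.0512), which left 0 genes of the set called. Leaving out 1 line at a time, it ran from -2.55 to -1.80. limma on log2(TPM + 1) gave -0.54 for it, on a scale that understates low genes. The count of called genes in the set was 2 with DESeq2 (Nr1h3 at -0.99, DESeq2 adjusted p = 0.0277), where 25.5% of all genes were called. It was also 2 with counts summed per mouse and stage (Scarb1 at 0.45, edgeR adjusted p = 0.0436), where 15.5% of all genes were called. Without mouse 6 it was 2 as well (Scarb1 at 0.53), where 19.1% of all genes were called. It ran from 1 to 3 with 1 line left out (3 of 7 tested without tumor replicate 6, where 24.7% of all genes were called). Over these fits Nr1h3 ran from -1.22 to -0.74 and Scarb1 from 0.27 to 0.43. Scarb1 also passed without metastasis replicate 6 (0.39), where 2289 of 15449 genes were called. All genes called numbered 3968 with DESeq2, 1472 and 1521 with limma on TPM, 863 and 825 with ribosomal RNA covariates, 794 without the 2 lines richest in ribosomal RNA, 1133 to 3910 with 1 line left out, and 1500, 1394, 1272, 1677 and 766 without mice 1 to 5. Nr1h2, Abcg1 and Lpcat3, which were not called, changed sign; Nr1h3 and Scarb1 did not. Without the 2 richest lines Nr1h2 was at 0.00626 and Abcg1 at -0.12. Without mice 2, 5 and 6 Nr1h2 was at 0.0153, 0.0101 and 0.00326, and without mice 2 and 4 Abcg1 was at -0.25 and -0.25; it was at 0.85 without mouse 6 and at 0.61 with summed counts. With 1 line left out, Nr1h2 ran from -0.0943 to 0.0161, Abcg1 from -0.27 to 0.60 and Lpcat3 from -0.126 to 0.0377. With no replicate block 2219 genes and 1 of the set were called, Lpcat3 was at 0.000559 and Abcg1 at 1.26. The Nr1h3 share then differed by -3.38 percentage points (exact permutation p = 0.0131 over 16 lines). That permutation treats lines that share a mouse as independent, and the paired sign-flip test over 6 mice gave p = 0.09375. The causes of the changes between settings were not tested. Metastasis replicate 4 limits what the scarce genes can show.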
